A study of Mus musculus with 2 samples.

Results

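The genes described here are those of the erythropoietin (EPO) receptor pathway, namely Epor, Jak2, Stat5a, Stat5b, Socs1, Socs2, Socs3, Cish, Pim1 and Pim2. They were taken as all non-control probes whose gene name in the array files is one of these 10 symbols, which gave 13 of the 55681 probes on the array and 10 of the 19871 genes tested. The series measured total RNA from E14.5 fetal liver erythroid progenitors of C57BL/6 mice, taken as lineage-negative (Lin-) cells, transduced with vector alone or with ESlncRNA, from which GFP+ cells were sorted. ESlncRNA, also called lincRNA-EPS, is an erythroid long noncoding RNA. Each of 2 arrays carried an ESlncRNA sample in Cy5 and a vector sample in Cy3. Dyes were not swapped, so any dye bias of a probe enters both ratios with the same sign. The labels give neither the promoter of the construct nor the medium and time after transduction, and they do not say whether EPO was present.

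EPO binds its receptor on erythroid progenitors, which brings together the JAK2 kinases held on the receptor's tails. JAK2 phosphorylates the receptor and the transcription factors STAT5A and STAT5B, which enter the nucleus and bind DNA at TTCNNNGAA, where N is any base. STAT5 induces CISH and SOCS proteins, which hold signalling down by binding the receptor or JAK2, and PIM kinases, which favour survival. In the fetal liver the pathway is known for keeping erythroid progenitors alive as they mature.

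With ESlncRNA the receptor transcript was higher and the feedback genes Socs1, Socs2, Socs3 and Cish were lower, as was Pim1. Epor was 1.54-fold higher, and Stat5a, Stat5b and Pim2 were higher by 1.13- to 1.22-fold. Socs1 was 2.05-fold lower, Cish 1.85-fold, Pim1 1.84-fold and Socs3 1.60-fold. Socs2 was at least 1.25-fold lower by its brightest probe at the main settings, and measured at 1.23-fold with median centring. Jak2 did not pass the test. Thus 9 of the 10 genes were called, 4 higher and 5 lower, at an adjusted p under 0.05 in limma with Benjamini-Hochberg adjustment over all probes kept. Calls were frequent throughout the array: 63.1% of all genes tested were called, 26.3% higher and 36.8% lower, so the share of members called is to be read against that background. Socs2 on both arrays, and Socs3 on replicate 2, entered the fit through the vector channel alone, which favours a lower ratio. With both channels required above background these 2 had no value. Of the 8 members then measured, 4 were higher and 3 lower, and of 17236 genes 5008 were higher and 5904 lower. At the main settings only Socs1 was at least 2-fold lower on both arrays, a size that 8.1% of all genes tested reached. With an offset of 0 in the background correction, Socs1, Cish and Pim1 reached it, as did 11.9% of all genes. With Agilent's processed signals Socs1 and Cish did (12.4% of all genes), with the authors' deposited log2 values Socs1 and Pim1 (9.82%), and with median centring in place of loess no member (5.91%).

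A normalised signal is a spot's intensity in 1 channel after background correction, loess and scaling between arrays. Members' signals are compared only within a probe, since signals of different probes are not on a common scale. A log2 ratio is that of ESlncRNA over vector, given as its mean ± SD (n = 2 arrays). The labels do not state that replicates were separate cultures, so a p reflects only the spread between these arrays, and that may be technical. It rests mostly on a variance pooled over all probes in the fit (5.27 prior degrees of freedom) and less on a probe's own SD (1 residual).

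The probes of the receptor, Jak2 and STAT5 genes had signals far above background. The Epor probe lies on chromosome 9 at 21763422 to 21763481 (mm9, minus strand). Its normalised signal was 29837 and 32394 with vector, and 45059 and 50644 with ESlncRNA, for replicates 1 and 2. Both ESlncRNA samples were above both vector samples. How many of all genes tested were separated in this way was not counted, here or for the members below. The log2 ratio was 0.62 ± 0.035 (adjusted p = 7.169e-05, limma), and 3.54% of all genes tested had a ratio at least as high. Without loess, with each array only centred on its median, the ratio of Epor was 1.51 and the median of all genes moved from -0.03 to 0.34.

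Jak2, the kinase bound to the receptor (chromosome 19, 29387487 to 29387546, mm9), gave normalised signals of 4164.5 and 4225 with vector and of 4291 and 4629 with ESlncRNA. The samples did not overlap, but on replicate 1 the distance was small. The log2 ratio of 0.09 ± 0.063 did not pass the test (adjusted p = 0.1783, limma). It passed with Agilent's processed signals, at 0.25 (adjusted p = 0.03129, limma), and with median centring, at 0.69.

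Stat5a and Stat5b encode the transcription factors that JAK2 activates, and they are neighbours on chromosome 11, 346 bases apart in the RefSeq table of GRCm38.p6. The Stat5a probe (chromosome 11, 100746373 to 100746432, mm9) gave 3723 and 3593 with vector and 4209 and 4077 with ESlncRNA. Both ESlncRNA signals were higher, by nearly the same ratio on each array. The log2 ratio was 0.18 ± 0.0036 (adjusted p = 0.01648, limma). It missed the threshold with a normexp offset of 0, at 0.18 (adjusted p = 0.05805, limma), and when the 4 channels were taken as separate samples instead of as pairs (adjusted p = 0.07069, limma).

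For Stat5b, the brighter of 2 probes (chromosome 11, 100642045 to 100642104, mm9) gave 4168 and 4396 with vector and 5263 and 5208 with ESlncRNA, again without overlap. Its log2 ratio was 0.29 ± 0.065 (adjusted p = 0.002956, limma). The second probe (chromosome 11, 100642187 to 100642246, mm9) gave 0.34 and 0.06 on the 2 arrays, a mean of 0.20 (adjusted p = 0.0496, limma). The probes agreed on replicate 1, and on replicate 2 the second was near no change. With median centring the ratios of Stat5a and Stat5b were 0.77 and 0.90.

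These small rises stand beside those of genes often used as references. Actb (cytoplasmic actin) had a log2 ratio of 0.40, Gapdh (a glycolytic enzyme) 0.31 and Tbp (the TATA-binding protein) 0.41, all called higher. With processed signals Actb was at -0.0013, Gapdh at -0.06 and Tbp at 0.58. When all kept probes were averaged per gene, Gapdh was at -0.10 and Tbp at 0.31. With median centring Actb reached 1.54, Gapdh 1.42 and Tbp 0.93, where Epor was at 1.51. With processed signals Epor was at 0.70.

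**Figure D1:**
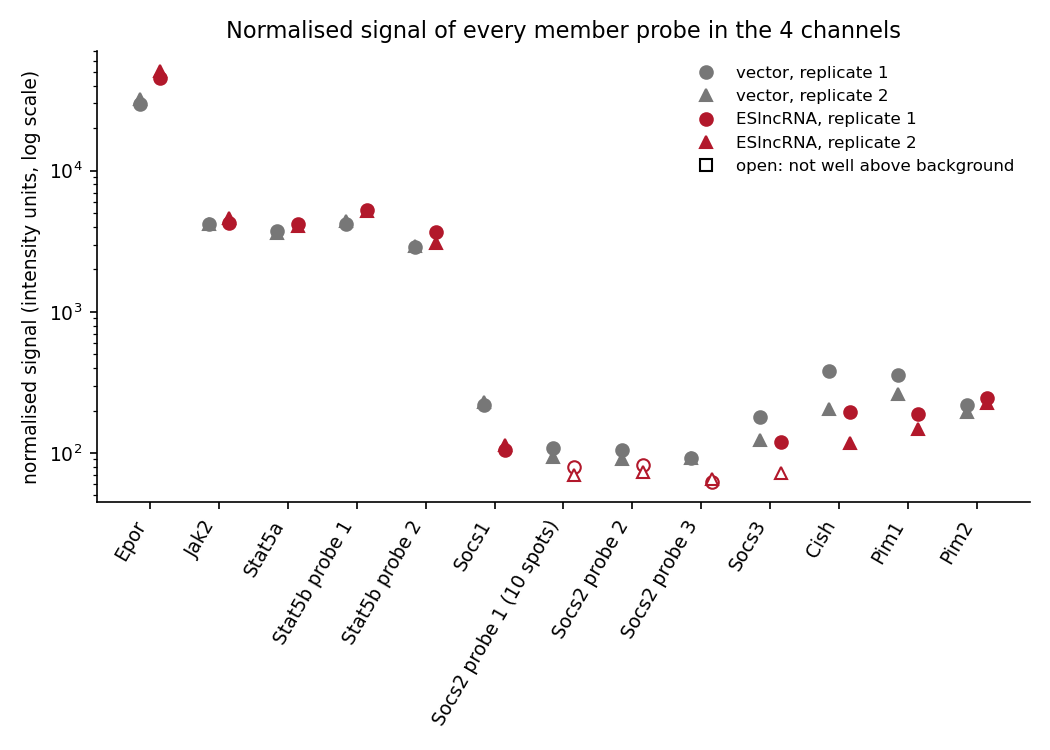
Normalised signal (intensity units, log scale) of the 13 member probes, along the horizontal axis, in the 4 channels, with vector in grey and ESlncRNA in red, circles for replicate 1 and triangles for replicate 2. Open symbols are not well above background, which holds for all ESlncRNA signals of the 3 Socs2 probes and for 1 of Socs3.

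The probes of the feedback genes and PIM kinases were dim, that is, near background. Their raw mean spot signals ran from 43.8 to 272 with vector, over local backgrounds of 17 to 23, and from 44.6 to 279 with ESlncRNA, over 43 to 59. The offset of 50 added to every corrected signal draws ratios of such probes toward 0.

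The probes of the member that rose most and of the 3 that fell most are shown by their first 30 of 60 bases, as the array files list them, because these oligonucleotides are what was measured. No base is marked. No 2 of the 13 probes share a run longer than 11 bases.
Epor: gaacgggattggtgaagccatacttaaagt
Socs1: gagggtctctggcttcatttttctgctgtg
Cish: actttagaaaacaagtgttagaacacaaga
Pim1: ccttgggatcctgctctatgacatggtctg

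Socs1 encodes a suppressor of cytokine signalling that binds and inhibits JAK kinases. Its probe (chromosome 16, 10783951 to 10784010, mm9) gave 218 and 229 with vector and 104 and 113 with ESlncRNA. Vector was about equally far above ESlncRNA on both arrays. The log2 ratio was -1.04 ± 0.034 (adjusted p = 6.077e-06, limma), and 8.23% of all genes tested were at least as low. With an offset of 0 it was -1.55 and with processed signals -1.57.

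Cish encodes a protein of the SOCS family that binds the activated EPO receptor where STAT5 docks. Its probe (chromosome 9, 107204196 to 107204255, mm9) gave 382 and 205 with vector and 195 and 117 with ESlncRNA. The lower vector signal lay just above the higher ESlncRNA signal, and replicate 1 was higher than replicate 2 in both channels. Within each array the distance was alike, with log2 ratios of -0.97 and -0.81 and a mean of -0.89 ± 0.11 (adjusted p = 2.835e-05, limma). With an offset of 0 the mean was -1.21. When the 4 channels were taken as separate samples, Cish missed the threshold (adjusted p = 0.06852, limma).

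Socs3, another inhibitor of JAK kinases and of receptors bound to them (probe on chromosome 11, 117827480 to 117827539, mm9), gave 179 and 123 with vector and 119 and 72.4 with ESlncRNA. The groups came close to each other, and the ESlncRNA signal was well above background on 1 of 2 arrays. On replicate 2 the probe passed the filter through vector alone. The log2 ratio was -0.68 ± 0.13 (adjusted p = 1.348e-04, limma). It was -1.65 with processed signals, where it missed the threshold (adjusted p = 0.08392, limma), and -1.25 with an offset of 0. With the 4 channels as separate samples it missed it too (adjusted p = 0.07574, limma).

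Socs2, a SOCS protein best known for restraining growth hormone signalling, had 3 probes on chromosome 10 between 94875066 and 94875527 (mm9). The probe with the highest mean log2 intensity over both channels gave 105 and 91.3 with vector and 81.6 and 73.6 with ESlncRNA. Neither ESlncRNA signal was well above background, and the same held for the other probes, so each fold is a bound. It is the mean vector signal over the mean of, per array, whichever is higher, the probe's own ESlncRNA signal or the lowest ESlncRNA signal of any probe well above background, and it is open to dye bias. The bounds were at least 1.25-, 1.29- and 1.21-fold lower with ESlncRNA, and the measured means of vector and ESlncRNA were 98.1 and 77.5, 101 and 74.9, and 91.6 and 63.7. The measured log2 ratios were -0.34, -0.43 and -0.52, with adjusted p = 0.001215, 3.694e-04 and 1.690e-04 (limma). All 3 probes pointed the same way, but the filter had admitted them only through vector, which favours a lower ESlncRNA signal. Their calls are thus no separate support for a fall. With an offset of 0 the first of these probes was at -0.78, and with processed signals at -0.81.

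One of these Socs2 probes is printed 10 times on each array, which shows the noise of a dim probe within an array. On each array 9 spots lay close together, from -0.53 to -0.24 on replicate 1 and from -0.52 to -0.33 on replicate 2. The remaining spot, at the same place on both arrays, stood apart at -0.10 and 0.16. Its ESlncRNA raw signal was 108 and 148, against at most 77.2 and 71.8 in the others. A neighbouring spot of that one, for Rpl36, had an ESlncRNA signal of 326120 and 358746, the brightest beside any of the 10. Another of the 10 lay beside a spot for Rps27 that was nearly as bright, at 297478 and 297053, and its ratios of -0.41 and -0.33 were among those of the other spots. Feature Extraction had marked the spot as an outlier on both arrays, and it was left out. With it the probe's mean was -0.38 in place of -0.43. Whether the neighbour had a part in it was not tested.

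**Figure D2:**
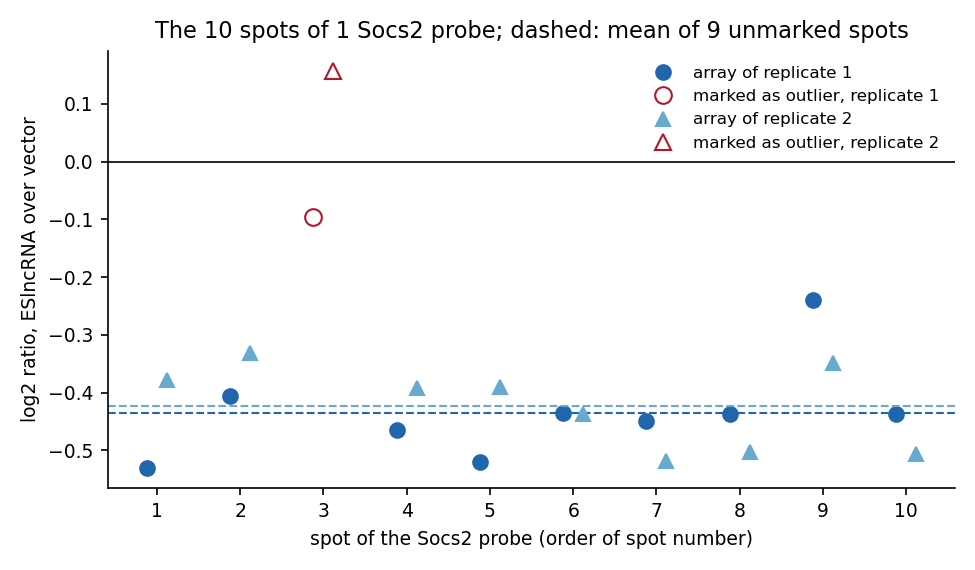
Log2 ratio of ESlncRNA over vector (vertical axis) of each of the 10 spots of 1 Socs2 probe (horizontal axis), circles for the array of replicate 1 and triangles for replicate 2. The 9 unmarked spots of each array lie below 0, around the dashed means of -0.44 and -0.42, and the marked spot, in open red, lies above them.

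The PIM kinases differed in direction. Pim1, a serine/threonine kinase and a known STAT5 target, gave 360 and 263 with vector and 190 and 148 with ESlncRNA. Both vector signals were above both ESlncRNA signals. The log2 ratio was -0.88 ± 0.065 (adjusted p = 1.7e-05, limma), and 9.86% of all genes tested were at least as low. With an offset of 0 it was -1.15. The probe lies on chromosome 17 at 29630740 to 29630799 (mm9).

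Pim2, a related survival kinase with its probe on chromosome X (7459678 to 7459737, mm9), gave 218 and 196 with vector and 246 and 224 with ESlncRNA. The higher vector signal lay just below the lower ESlncRNA signal. The log2 ratio was 0.18 ± 0.018 (adjusted p = 0.01535, limma). It was 0.64 with processed signals and 0.45 with median centring. It missed the threshold on the authors' deposited log2 values (adjusted p = 0.05604, limma), and with the 4 channels as separate samples (adjusted p = 0.1311, limma).

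**Figure D3:**
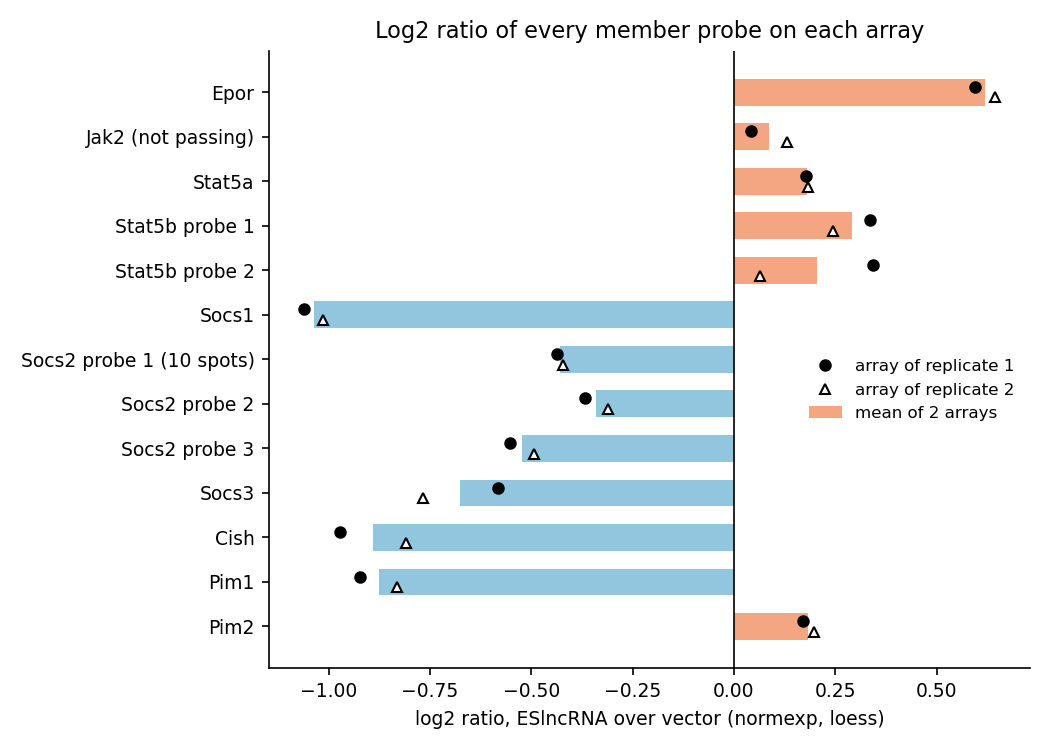
Log2 ratio of ESlncRNA over vector (horizontal axis) of each of the 13 member probes (vertical axis), with circles for the array of replicate 1, triangles for that of replicate 2 and bars for their mean. The 7 probes of Socs1, Socs2, Socs3, Cish and Pim1 lie below 0 on both arrays and the other 6 above 0, from 0.04 to 0.64.

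Across 8 other ways of processing, none of 78 values of the members changed sign, 69 kept their side of the threshold, 7 lost the call and 2 gained it. Many of these values could not change sign, since they repeat the main ratios. This holds without the background filter, with both channels required above background, and with channels as separate samples. Averaging probes changed only Stat5b and Socs2. Signs were thus tested mainly by median centring, the offset of 0, processed signals and deposited values. Median centring raised Epor, Jak2, Stat5a and Stat5b by 0.59 to 0.89. An offset of 0 lowered Socs1, Socs2, Socs3, Cish and Pim1 by 0.27 to 0.57, and moved Epor, Jak2, Stat5a and Stat5b by 0.0027 to 0.010 in size.

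**Figure D4:**
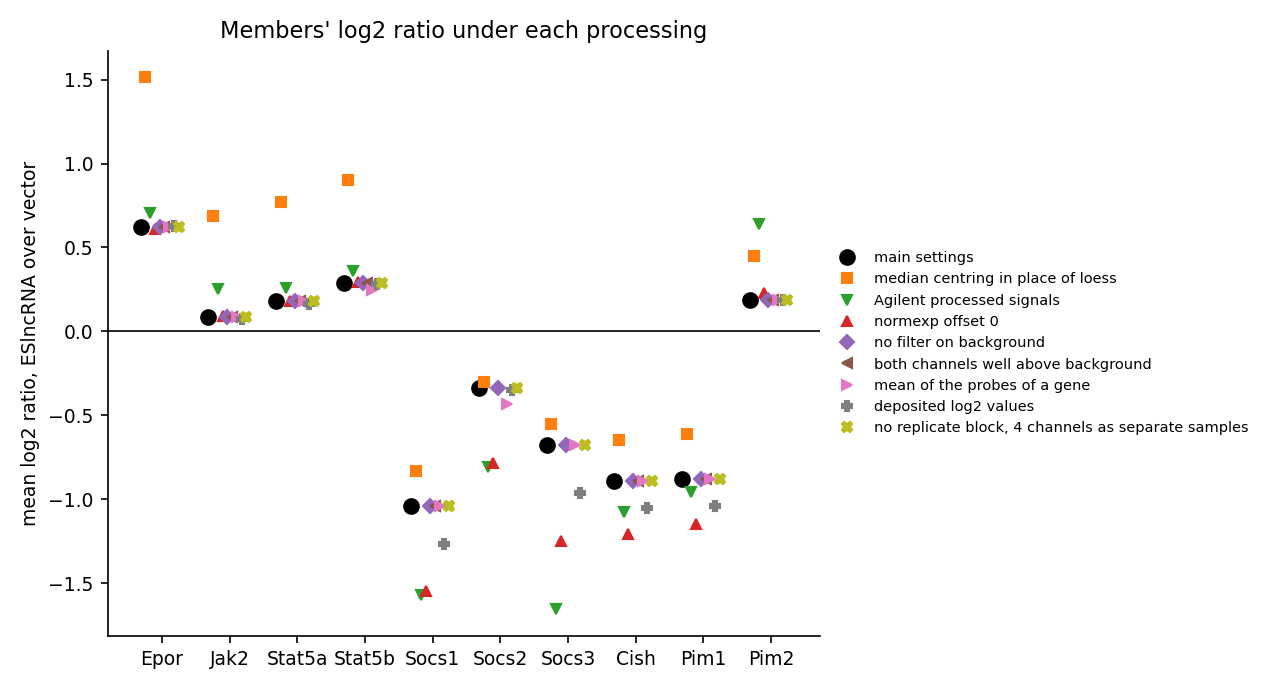
Mean log2 ratio of ESlncRNA over vector (vertical axis) of the 10 members (horizontal axis) under the main settings, in black, and 8 others, in colour. Epor, Jak2, Stat5a, Stat5b and Pim2 stay above 0 and Socs1, Socs2, Socs3, Cish and Pim1 below 0 wherever a value could be had. Settings that change only the background filter or the pairing of channels repeat the main ratios. Median centring puts Epor at 1.51.

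The promoters of the members were then searched for the STAT5 motif TTCNNNGAA, which reads the same on both strands and overlaps no other motif searched. RefSeq's promoters (GRCm38.p6) numbered 12, each 250 bases before to 50 after a transcript start, for 9 of the 10 genes. The promoter table had no entry for Socs2. The motif stood in the promoters of Cish and Socs3, both lower with ESlncRNA. It was in 8.3% of all promoters in the table, and 9.55% of all genes had it in at least 1. Cish held 2 copies, which 0.457% of all promoters reached, at bases 1 to 9 and 12 to 20 counted from the transcript start as base 1. The copy in Socs3 began 154 bases before the start. The windows are shown for the spacing of these copies, with the motif in capitals.
Cish, chr9:107296654-107296683, plus strand: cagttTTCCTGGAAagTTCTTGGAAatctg
Socs3, chr11:117969496-117969525, minus strand: cagccTTCTTAGAAgggaggggggggaaag

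Promoters of Epor, Jak2, Stat5a, Stat5b, Socs1, Pim1 and Pim2 did not hold these letters in this window. For Stat5a, Stat5b and Socs3 no window covered the outermost start of the gene in RefSeq's gene table. Sequence at that start was not searched. The members' promoters had a median GC content of 63% and a median of 22.5 CpG dinucleotides, where all promoters in the table had 52.7% and 7. A match is a description of the letters, and no binding was measured here.

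Of 22 listed genes known to respond to EPO or STAT5, 15 had promoters in the table and 4 held the motif. Serpina3g (a serpin) and Bcl6 (a transcriptional repressor) were lower with ESlncRNA, with log2 ratios of -2.47 and -1.57. Gfi1b (an erythroid transcription factor) and Sphk1 (sphingosine kinase) were higher, at 0.99 and 0.96. The latter pair was chosen for the motif after its values were seen. One window of each direction is shown, with the motif in capitals.
Serpina3g, chr12:104236109-104236138, plus strand: tatagTTCCCAGAAatcacccggtctgtcc
Sphk1, chr11:116531791-116531820, plus strand: tcaccTTCTCGGAAggcactcggggcgttc

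Around the members, the other genes of the pathway were mostly lower with ESlncRNA. Values below are log2 ratios of ESlncRNA over vector. Of 91 measured genes on 6 lists, 17 rose and 55 fell, against the background of 26.3% and 36.8%. The split turned to 45 higher and 31 lower with median centring, when the share of higher calls among all called genes moved from 41.7% to 77.5%. With processed signals that share was 59.2%, and 19 of the listed genes were higher and 38 lower. With both channels required above background, 17 were higher and 52 lower.

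In the JAK-STAT family without the members, 1 of 8 genes rose and 6 fell, with a median log2 ratio of -0.52, where the median of all genes tested was -0.03. Stat4, a factor of interleukin-12 signalling, fell to -2.75, with its ESlncRNA signal well above background on 1 of 2 arrays. Jak3, the kinase of the common gamma chain receptors, fell to -1.07, Tyk2 to -0.66 and Stat3 to -0.64. Their adjusted p ran from 1.106e-07 to 5.496e-05 (limma). Jak2, Stat5a and Stat5b, described above, were at 0.09 to 0.29.

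Of the remaining SOCS and PIM genes, 1 of 5 rose and 3 fell, with a median of -0.16. Socs4 rose to 0.31, and Socs5, Socs6 and Socs7 fell to -0.45, -0.18 and -0.16. Their adjusted p ran from 3.235e-04 to 0.02751 (limma), and Pim3 at 0.01 did not pass. The changes in Socs1, Socs3, Cish and Pim1 were larger in size than any of these 5.

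Among partners of the EPO receptor and other receptors that use JAK2, 2 of 11 measured genes rose and 8 fell, with a median of -1.44. Csf2rb, the beta subunit shared by the interleukin-3, interleukin-5 and GM-CSF receptors, and Csf2rb2, its near-identical copy specific to interleukin-3, fell to -3.57 and -3.51, and probes of such copies may not be told apart. Il3ra, the interleukin-3 receptor alpha chain, fell to -2.42. The adjusted p of these 3 genes ran from 6.458e-08 to 1.913e-07 (limma). Epor went the other way on the same arrays, at 0.62. So did the 2 genes of the list that rose, Tfr2 at 0.81 and Kit at 0.44. Scrib, at 0.02, did not pass.

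Of 27 adaptors, kinases and lipid signalling genes, 3 rose and 14 fell, with a median of -0.17. Plcg2, a phospholipase, fell to -3.00, Vav1, an exchange factor of blood cells, to -2.02, Sh2b1, an adaptor of JAK2, to -1.51 and Pik3cd, a leukocyte PI3-kinase subunit, to -1.33. Their adjusted p ran from 8.905e-08 to 2.012e-06 (limma). Of 20 other negative regulators, 5 rose and 11 fell, with a median of -0.17.

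In that last list Ptprc (CD45) fell to -2.70, Dok2, an adaptor that restrains kinases, to -2.49, Ptpn6 (SHP-1), the phosphatase that acts on the EPO receptor complex, to -1.71 and Sh2b3 (LNK), an inhibitor of JAK2 signalling, to -0.86. Their adjusted p ran from 1.22e-07 to 1.315e-05 (limma). Of 20 measured EPO or STAT5 responsive genes, 5 rose and 13 fell, with a median of -0.41. The list was not split by the direction in which a gene responds, so these counts give no measure of EPO signalling. Id1 fell to -2.46, Serpina3g to -2.47, Ccnd1 (cyclin D1) to -2.21 and Bcl6 to -1.57, with adjusted p from 1.405e-07 to 8.804e-07 (limma). The 5 that rose were Trib3 at 1.91, Tfrc at 0.66, Gata1 at 0.50, and Gfi1b and Sphk1, given above. With median centring the medians of 5 of the 6 lists were above 0, from 0.01 to 0.42, and that of the receptors was -0.81. The median of all genes was then 0.34. Relative to it the lists stood at -1.14 to -0.01, except the remaining SOCS and PIM genes at 0.09.

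**Figure D5:**
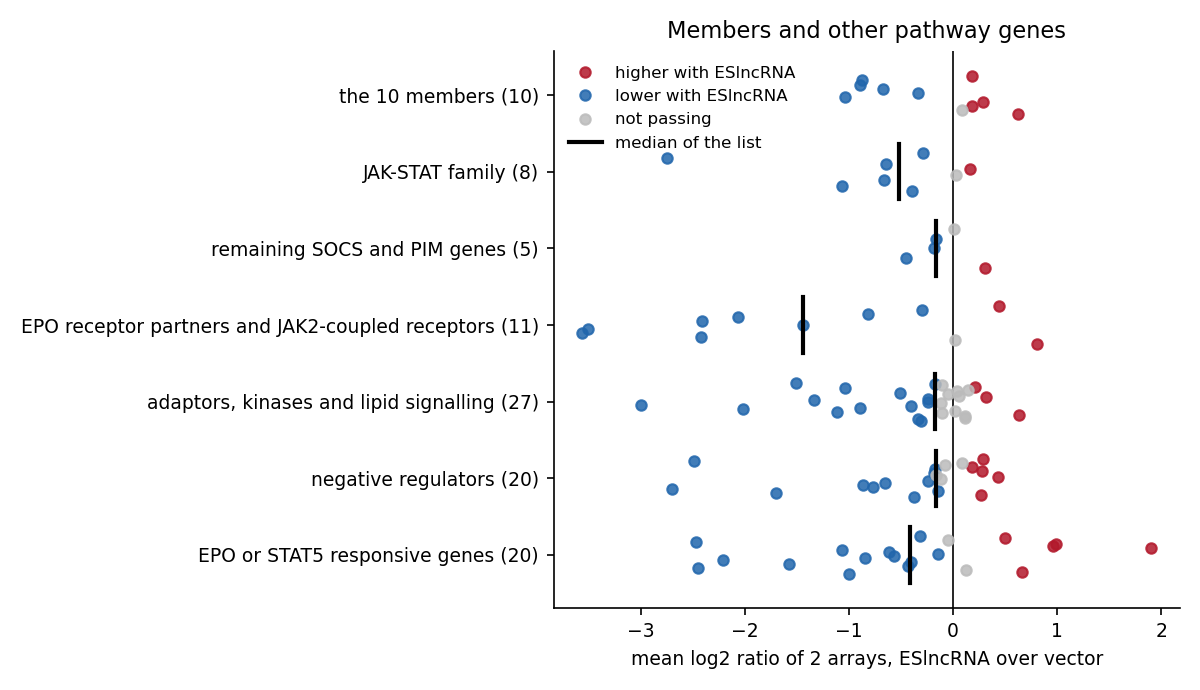
Mean log2 ratio of 2 arrays, ESlncRNA over vector (horizontal axis), of the 10 members and of the genes measured on 6 other pathway lists (vertical axis, numbers in brackets), with higher calls in red, lower calls in blue, genes not passing in grey and list medians as black bars. The receptor list reaches furthest down, to -3.57.

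Markers of cell types moved with the members, and their part in the members' values was not tested. Some genes stand on both kinds of list, as Tfrc and Gata1 do among the erythroid markers and the EPO or STAT5 responsive genes. Erythroid markers rose in 11 of 14 measured cases and fell in 1, with a median of 0.85 and a summed normalised signal of 386000 and 317000 with vector against 639000 and 553000 with ESlncRNA, most of it from the globin genes Hba-a1 and Hba-a2. The 2 that did not pass differed between arrays, Slc4a1 at -0.45 and 1.48 and Alas2 at -0.02 and 0.77. Their vector signals were 2221 and 322 and 1774 and 585, so vector replicate 1 stood above vector replicate 2 for both. Ermap rose to 0.94 and Rhag to 0.91, and Epor at 0.62 moved the same way. Other lists went down with Socs1, Socs2, Socs3, Cish and Pim1. All 12 granulocyte markers fell, with a median of -4.09 and sums of 1170000 and 1300000 against 69500 and 83300. With vector, most of the granulocyte sum came from S100a9, Mpo, Ctsg and S100a8. Such sums follow the brightest probes of a list, since signals of different probes are not on a common scale. None of the 12 was lost to background, S100a8 and S100a9 among them, which fell to -5.43 and -5.25. Lower were also 10 of 10 macrophage markers (Fcgr3 at -3.94, Csf1r at -3.31), 11 of 11 of megakaryocytes (Plek, Itgb3) and 9 of 9 of stem and early progenitors (Cd34 at -4.22, Meis1). Of mast cell, basophil and eosinophil markers 9 of 10 fell (Cpa3, Hdc) and 1 rose, of lymphocyte markers 2 of 4 (Cd79b, Il7r) with 1 that rose, of hepatocyte markers 5 of 7 (Trf, Afp) and of endothelial markers 6 of 7 (Sparc, Col4a1). Over these 7 lists the summed signal ran from 2430 to 85300 with vector and from 703 to 23900 with ESlncRNA. With ESlncRNA, 4 macrophage, 4 endothelial, 3 mast cell, basophil and eosinophil, 3 stem and early progenitor, 2 lymphocyte and 2 hepatocyte markers were not well above background on both arrays. These, Il7r and Col4a1 among them, had passed the filter through vector alone on 1 array or both, which favours a fall. With both channels required, 6 of 6 macrophage, 6 of 6 stem and early progenitor and 2 of 3 endothelial markers fell. So did 3 of 5 hepatocyte, 1 of 2 lymphocyte and 6 of 7 mast cell, basophil and eosinophil markers. In each of the last 2 lists 1 rose. In bulk RNA, fewer cells of a type and less RNA per cell cannot be told apart.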

How the data were processed

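The authors deposited intensities of each spot, which per the file headers came from Feature Extraction 10.1.1.1, and its mean signal and median local background in both channels were used. Feature Extraction's processed intensities were an alternative. Its log10 ratios of Cy5 over Cy3, also deposited, were not used for any value. The authors' deposited log2 values, made with limma per the submitters' processing notes, were another alternative. Set against the ratios computed here, they gave r = 0.980 and 0.986, slopes of 1.11 and 1.10 and median absolute differences of 0.033 and 0.030, from which their direction and log2 scale were taken. Their medians were -0.02 and -0.01.

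In R 4.3.3 with limma 3.58.1, normexp with an offset of 50 corrected the background and loess normalised each array. Control spots and the 284 and 308 marked spots of 59305 had weight 0, and 0 spots were saturated. Of 55681 probes, 26791 entered the fit, those that on each array were well above background in 1 channel or both. A gene was represented by its brightest kept probe. An intercept model was fitted, with 5.27 prior degrees of freedom and 1 residual. Benjamini-Hochberg adjustment ran over all probes in the fit. All 13 member probes passed the filter, those of Socs2 on both arrays and that of Socs3 on replicate 2 through vector alone. Whether probes lie in coding or untranslated sequence was not analysed here. Of spots, 52.1% and 49.1% (vector) and 45.6% and 44.4% (ESlncRNA) were well above background, and genes correlated at r = 0.983 between arrays. The number of arrays limits the precision.

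Members, lists and tests were chosen with earlier results of these data known. Named were all members, the 4 genes of smallest p per pathway list and the 2 per marker list, Actb, Gapdh and Tbp, except 1 gene that is not reported here. Gfi1b and Sphk1 were named for their motif and Slc4a1, Alas2, Hba-a1, Hba-a2, Mpo and Ctsg for their signals, after their values were seen. Tfr2, Kit, Scrib, Trib3, Tfrc and Gata1 were named for their ratios, also after these were seen. No gene of like pattern was named, since there was 1 contrast. Probe positions are mm9, per the file headers, and promoters GRCm38.p6. Genes were named by accession (26413 probes), symbol (3859) or older symbol (735) through RefSeq's table, and 24674 probes kept the file's name. The fit was tested on simulated data.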

Additional observations from a re-analysis of the deposited data

How the results depend on the processing

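With the 4 channels as separate samples (no replicate block, in place of the pairing of 2 channels on an array), 5 members and 7 member probes were called, where the pairing gave 9 and 12. Stat5a (adjusted p = 0.07069, limma), Socs3, Cish and Pim2 (0.1311) lost the call, with log2 ratios as before. Of 19871 genes tested, 9180 were called in this way and 12530 with the pairing. Under the other settings the members called numbered 7 to 10. The 7 came with both channels required above background, where 10912 of 17236 genes were called. The 10 came with median centring, where 16145 of 19871 genes were called. Restricting the STAT5 motif to bases before the start, chosen after seeing the data, left 1 member with it, Socs3. Leaving out either array gave each member's ratio on the other, as plotted, and no test. With both channels required above background, Socs2 and Socs3 had no value. Called genes, pathway genes and markers, both directions summed, stayed within 1.5 times under all settings run, but the directions did not: median centring gave 12511 genes higher and 3634 lower in place of 5224 and 7306, and 21 markers higher in place of 13. Dim signal limits Socs2 and Socs3 most.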
